A study of Mus musculus with 9 samples.

Results

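The genes described here are those of the mitochondrial ribosomal proteins of the mouse, taken as all genes whose platform symbol starts with Mrpl or Mrps among probe sets that name 1 symbol. The rule found 74 of 22103 named genes, with 713 probe sets, and 72 of the 74 could be tested among 16770 genes in primary cortical neurons with and without a knockdown of Tdp-43. Mitochondrial ribosomes translate the few messages of mitochondrial DNA, all of which encode subunits of the respiratory chain and the ATP synthase. Their RNAs come from mitochondrial DNA, while every protein of the large (Mrpl) and small (Mrps) subunit is encoded in the nucleus, made in the cytosol and imported. Some of these proteins have a counterpart in the bacterial ribosome and others are found only in mitochondria. Neurons depend heavily on oxidative phosphorylation for firing and for transport along the axon. Tdp-43 (gene Tardbp) is an RNA-binding protein of the nucleus that acts in splicing and RNA stability and forms inclusions in amyotrophic lateral sclerosis.

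The neurons came from C57BL/6 embryos of embryonic day 15 and were plated after the meninges had been removed, with AraC, which kills dividing cells, given a day later. On day 5 they were exposed for 4 h to a lentivirus expressing an shRNA, cultured for 6 days more and harvested on day 11. The groups were the hairpins shTdp-43-1 and shTdp-43-2, both against mouse Tdp-43, and the control hairpin shCont, with 3 Affymetrix Mouse Exon 1.0 ST arrays each. All 3 groups carry a lentivirus, so no uninfected neurons enter any comparison. Where the design text of the series names motor neurons and a harvest 11 days after transfection, the sample labels were followed. Nothing in the labels says that the 3 arrays of a group came from separate cultures, so the p-values measure the spread between these arrays, which may be technical.

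Values are log2 RMA intensities, where 1 unit is a factor of 2, and a gene's value is the mean over its probe sets with a 9-array mean at or above the table median of 6.07. The targeted gene Tardbp had 7.84, 8.23 and 8.55 on the shTdp-43-1 arrays, 8.22, 8.58 and 7.90 on the shTdp-43-2 arrays, against 9.77, 9.94 and 10.06 on the shCont arrays. The log2 change was -1.72 ± 0.186 (SE, ratio 0.304, limma adjusted p = 0.000349) for shTdp-43-1 neurons and -1.69 ± 0.186 (SE, ratio 0.309, limma adjusted p = 0.000109) for shTdp-43-2 neurons. Arrays of one group correlated at 0.985 to 0.994 over all genes, and the median gene value per array ranged from 8.75 to 8.94. Of 6 neuron markers, 5 were tested, with 9-array means of 11.49 to 12.49 and no call with either hairpin. The 6 astrocyte markers had list means of 10.31 to 10.38 on shTdp-43-1 arrays, 10.24 to 10.33 on shTdp-43-2 arrays and 10.37 to 10.56 on shCont arrays, with 1 and 3 of 6 called lower (Aqp4 with both hairpins, Slc1a2 and Gja1 with shTdp-43-2). With each hairpin 3 of 6 estimates lay above 0, none called. With shTdp-43-1 they were Slc1a2 (0.13), Slc1a3 (0.03) and Aldh1l1 (3.7e-06). With shTdp-43-2 they were Aldh1l1 (0.12), Gfap (0.05) and Slc1a3 (0.04). The 6 markers of fibroblasts and pericytes had list means of 8.42 to 8.60 on shTdp-43-1 arrays, 8.21 to 8.38 on shTdp-43-2 arrays and 8.61 to 8.73 on shCont arrays, with 2 and 3 of 6 called lower (Pdgfrb and Rgs5 with both hairpins, Dcn with shTdp-43-2). The collagen genes Col1a1, Col1a2 and Col3a1 of that list had changes of 0.14 to 0.15 with each hairpin, none called. Of all genes tested, 5.96% were called lower with shTdp-43-1 and 14.1% with shTdp-43-2. The part of these non-neuronal cells in the results that follow was not tested.

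Mrps36 was the one member with an adjusted p under 0.05 in the same direction with both hairpins, and its rise was among the largest of any gene on the array. Its product carries the name of a small-subunit protein but is assigned, as Kgd4, to the 2-oxoglutarate dehydrogenase complex of the citric acid cycle, where it helps to hold the lipoamide dehydrogenase subunit in place. Mrps36 had 9.91, 9.69 and 9.74 on the shTdp-43-1 arrays, 10.09, 10.25 and 10.21 on the shTdp-43-2 arrays, against 8.41, 8.37 and 8.78 on the shCont arrays. All 6 hairpin arrays lay above all 3 control arrays, and the 3 shTdp-43-2 arrays lay above the 3 shTdp-43-1 arrays. Its level averaged 9.78 ± 0.114 in shTdp-43-1, 10.18 ± 0.0815 in shTdp-43-2 and 8.52 ± 0.225 in shCont (SD, n = 3 each). It rose by 1.26 ± 0.113 (SE, ratio 2.39, limma adjusted p = 0.000155) log2 units with shTdp-43-1, with a 95% confidence interval of 1.01 to 1.51. With shTdp-43-2 it rose by 1.66 ± 0.113 (SE, ratio 3.16, limma adjusted p = 8.12e-06), with an interval of 1.41 to 1.91. Ranked by size of the positive change, it was the 6th of 16770 genes with shTdp-43-1 and the 4th with shTdp-43-2. Both calls were kept under all 18 other settings tried, with changes of 1.18 to 1.74 for shTdp-43-1 and 1.59 to 2.05 for shTdp-43-2. These are bulk arrays, in which fewer cells of a type and less RNA per cell cannot be told apart.

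The promoters of Mrps36 and Mrpl9 are printed as examples of a GC box and of an NRF1 core in front of a member (RefSeq, build GRCm38.p6, 250 bases before the annotated start, on the gene's strand). In capitals are, for Mrps36 at chr13:100744660-100744909 on the minus strand, 2 overlapping GC boxes (GGGCGG), and for Mrpl9 at chr3:94443086-94443335 on the plus strand, a palindrome that holds the NRF1 core GCATGCGC once on each strand, which the search counted as 2 overlapping matches.
Mrps36: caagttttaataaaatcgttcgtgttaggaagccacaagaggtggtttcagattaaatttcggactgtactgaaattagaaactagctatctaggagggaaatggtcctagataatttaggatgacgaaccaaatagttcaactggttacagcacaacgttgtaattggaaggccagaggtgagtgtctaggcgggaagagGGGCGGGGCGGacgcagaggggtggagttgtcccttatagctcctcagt
Mrpl9: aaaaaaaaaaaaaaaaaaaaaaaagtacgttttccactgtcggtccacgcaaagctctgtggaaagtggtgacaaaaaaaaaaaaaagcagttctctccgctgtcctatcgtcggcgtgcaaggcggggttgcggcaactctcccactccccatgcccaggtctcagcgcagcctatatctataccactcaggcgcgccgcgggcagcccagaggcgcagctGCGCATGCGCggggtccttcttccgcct
The GC box, read by Sp1-family factors, is common in promoters without a TATA box. NRF1 and the ETS factor GABP are known regulators of nuclear genes for mitochondria. Both strands were searched in the 71 windows found for 65 of the 74 members. A GC box was found in 35 of 71 member windows (49.3%), against 32.7% of all 32851 windows. The ETS motif CCGGAAG was found in 16 windows (22.5%), against 6.91% of all, and the NRF1 core in 8 windows (11.3%), against 2.26%. The Mrps36 window holds neither the ETS motif nor the NRF1 core, and the Mrpl9 window holds neither a GC box nor the ETS motif. Such matches describe letters only and were not set against the changes in expression.

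The rise of Mrps36 was seen across its probe sets. The annotation gives it 15 probe sets, of which 2 were below the filter and 13 were used. Among the 13, probe set 4873084 reached the filter through the hairpin arrays alone, while the other 12 had a shCont mean at or above it. Over all 15, with no filter, every mean was higher with each hairpin than in shCont, by 0.14 to 1.89 log2 units (median 1.17) for shTdp-43-1 and 0.53 to 2.61 (median 1.67) for shTdp-43-2. All 3 arrays of the hairpin lay above all control arrays in 11 of 15 probe sets for shTdp-43-1 and 14 of 15 for shTdp-43-2. The share of all probe sets that did so is not given here. Of gene values, which average several probe sets, 16.9% and 15.3% over all genes tested did so. Tested one by one among 628416 probe sets, 4 of 13 were called higher with shTdp-43-1, where 0.0843% of all probe sets were called in either direction, and 10 of 13 with shTdp-43-2, where 1.54% were. All of these calls were among the 12 sets that reached the filter value in shCont too. The 4 called with both hairpins were probe sets 5528428, 4515115, 4386120 and 4510564. The last 3 of these read within 0.204 of each other on every array and may share probes, so they are not separate evidence. Probe sets 4391172 and 5306041, both among the 10 called with shTdp-43-2, were also grouped as alike. The count of 4 became 0 without any 1 shTdp-43-1 or shCont array, with 11 or 12 of the 13 at an unadjusted limma p under 0.05 with both hairpins, and 2 without shTdp-43-2 replicate 1 or 2, while each value of the whole gene kept its call. Leaving out any 1 probe set of the gene gave changes of 1.21 to 1.35 with shTdp-43-1 and 1.58 to 1.76 with shTdp-43-2, with limma adjusted p of at most 0.000212 and 1.17e-05. This never removed the 3 alike sets together.

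Probe set 5528428 showed the rise clearly, with 11.16, 10.80 and 10.77 on the shTdp-43-1 arrays, 11.45, 11.20 and 11.28 on the shTdp-43-2 arrays, against 9.67, 9.37 and 9.42 on the shCont arrays. Probe set 4958373 showed least of it, with 9.19, 9.29 and 8.89 on the shTdp-43-1 arrays, 9.80, 9.19 and 9.56 on the shTdp-43-2 arrays, against 9.13, 9.03 and 8.79 on the shCont arrays. In probe set 4958373 the shTdp-43-1 and shCont arrays overlapped, and its change differed from that of the rest of the gene by -1.22 ± 0.323 (SE, adjusted p = 0.03) with shTdp-43-2 and by -1.21 ± 0.323 (SE, adjusted p = 0.0591) with shTdp-43-1 in limma's diffSplice.

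The arrays of a group did not order the Mrps36 probe sets in one way. Of the 13, 8 were highest on shTdp-43-2 replicate 1, where they averaged 11.31, beside 10.84 and 11.02 on the other shTdp-43-2 arrays, 10.53 to 10.89 on shTdp-43-1 arrays and 9.30 to 9.62 on shCont arrays. The other 5 were lowest among the shTdp-43-2 arrays on that same replicate 1, with a mean of 8.14 there, 9.31 and 8.90 on replicates 2 and 3, 8.10 to 8.47 on shTdp-43-1 arrays, and 6.48, 6.89 and 7.54 on the shCont arrays. Both sets were picked after their values were seen and carry no test. The mean differences were alike in size, at 1.21 and 1.33 log2 units with shTdp-43-1 and 1.56 and 1.82 with shTdp-43-2 for the 8 and the 5. RefSeq lists 3 pseudogenes of Mrps36 in the mouse, so signal from near-identical copies may enter some probe sets, and their positions on the gene were not used here.

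**Figure D1:**
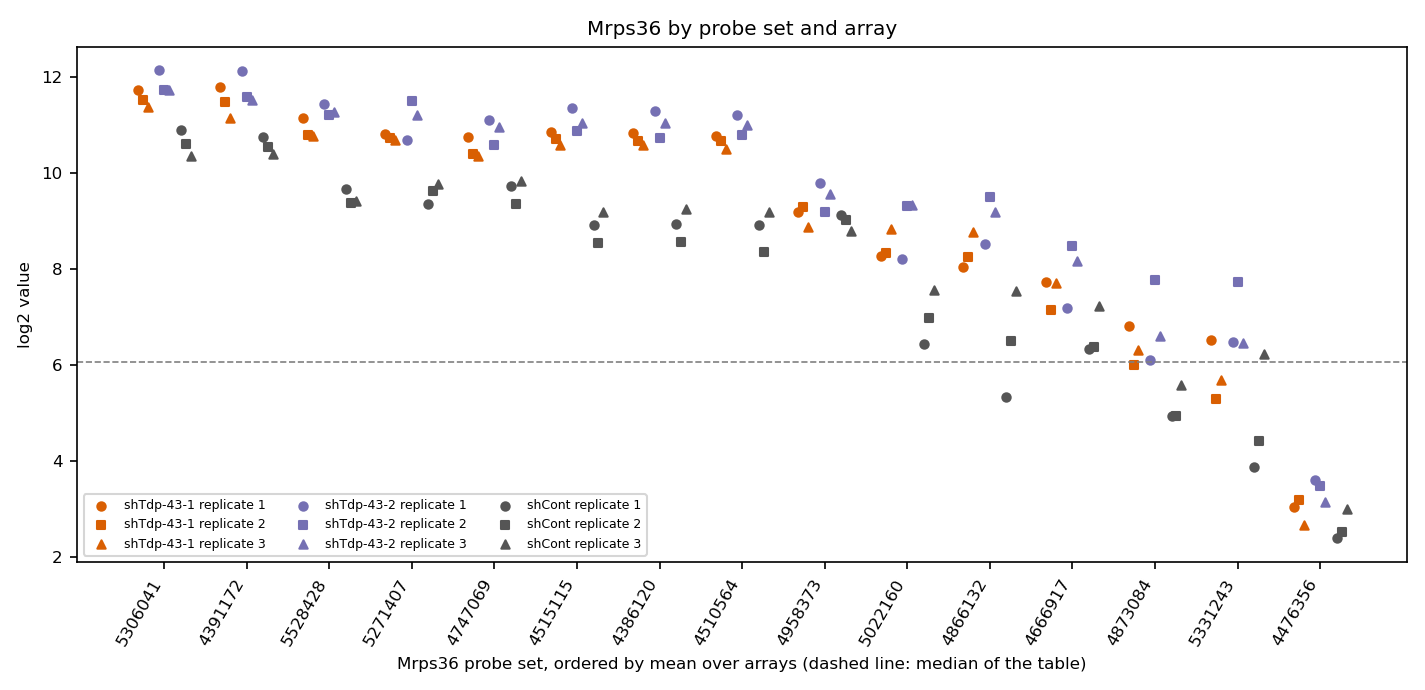
Log2 intensity (vertical axis) of the 15 annotated Mrps36 probe sets, with 1 point per array for shTdp-43-1, shTdp-43-2 and shCont and a dashed line at the table median, which the 2 rightmost sets do not reach on average. In 11 of the 15 probe sets all shTdp-43-1 points lie above all shCont points, and in 14 of 15 all shTdp-43-2 points do. The share over all probe sets is not given.

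Of the genes on either side of Mrps36 in the RefSeq gene order, 4 were looked at and 3 were tested, and none of them rose with it. Cdk7, a kinase of the cell cycle and of transcription initiation, fell by 0.59 log2 units with shTdp-43-2 (limma adjusted p = 0.00174) and had a change of -0.08 with shTdp-43-1 (adjusted p = 0.634). Ccdc125 had changes of -0.07 and 0.08 with shTdp-43-1 and shTdp-43-2, and the centromere gene Cenph had 0.14 and -0.33, none with an adjusted p under 0.05. The other genes of the 2-oxoglutarate dehydrogenase complex did not rise either. Dlst, its succinyltransferase, fell by 0.30 with shTdp-43-2 (limma adjusted p = 0.0127), a call lost without shCont replicate 2 (limma adjusted p = 0.0607, the call kept in 15 of 18 other settings), and had a change of -0.08 with shTdp-43-1. Ogdh had changes of 0.0019 and -0.05, Ogdhl of 0.08 and -0.02, and Dld of -0.16 and -0.30, all short of the threshold.

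Among the 71 other members, which form the mitochondrial ribosome proper, few were called. They were 1 higher and 3 lower with shTdp-43-1, and 1 higher and 6 lower with shTdp-43-2. The counts out of 72 include Mrps36. With shTdp-43-1, 5 of 72 members passed an adjusted p of 0.05 (6.94%), against 11.1% of all genes tested. Mrps36 and Mrpl4 were higher, and Mrps17, Mrpl24 and Mrps11 were lower. With shTdp-43-2, 8 of 72 passed (11.1%), against 21.9% of all genes. Mrps36 and Mrpl50 were higher, and Mrps27, Mrps34, Mrpl38, Mrpl9, Mrpl11 and Mrpl48 were lower. By direction, 5.16% of genes were called higher and 5.96% lower with shTdp-43-1, and 7.76% higher and 14.1% lower with shTdp-43-2. Only Mrps36 was called the same way with both hairpins (1.39% of 72), against 6.45% of all genes, and no member was called in opposite directions. At an unadjusted p under 0.05 there were 15 and 28 members (20.8% and 38.9%), against 27.6% and 33.5% of all genes. The counts rested on single arrays, and the share of all genes called without each array is not given here. With shTdp-43-1 the count of 5 became 2 without shTdp-43-1 replicate 2, 3 without its replicate 3, 3 without shTdp-43-2 replicate 1 or 2, 2 without shCont replicate 1 and 1 without shCont replicate 2 or 3. With shTdp-43-2 the count of 8 became 3 without shTdp-43-2 replicate 1 or shCont replicate 1 and 5 without shCont replicate 2 or 3. The single member called with both became 2 when shTdp-43-1 replicate 1 was left out and 3 when shTdp-43-2 replicate 2 was.

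Members that missed the threshold had changes that overlapped in size with those of called members. Changes of the members not called ranged from -0.35 to 0.19 with shTdp-43-1 and from -0.32 to 0.27 with shTdp-43-2. Called changes included -0.30 for Mrpl24 with shTdp-43-1 and -0.27 for Mrpl48 with shTdp-43-2. For 71 of 72 members with each hairpin, called or not, the 95% confidence interval lay within a 2-fold difference either way. Mrps36 was the exception. The median half-width of the interval over members was 0.20 log2 units. Mrpl20, of the large subunit, came close to the threshold with both, with -0.35 and -0.29 (limma adjusted p = 0.0546 and 0.0731). In all, 60 of 72 members were called with neither hairpin. The share of all genes called with neither is not given here.

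Most estimates nevertheless lay slightly below 0. They did so for 54 of 72 members with shTdp-43-1 and 55 of 72 with shTdp-43-2 (75% and 76.4%), against 49% and 51.3% of all genes tested. Without Mrps36, the median change of the 71 members was -0.10 for shTdp-43-1 and -0.13 for shTdp-43-2, while the median of all genes was 0.006 and -0.0075. The comparisons share the 3 control arrays, so the low side in both is not 2 separate observations. All shTdp-43-1 arrays lay below all control arrays for 21 members (29.2%), against 18.1% of all genes, and all shTdp-43-2 arrays did for 23 members (31.9%), against 23.4%. All hairpin arrays lay above the controls for 5 and 6 members (6.94% and 8.33%), against 16.9% and 15.3% of genes. When each array was first centred on its median gene, the members' medians were -0.06 and -0.05, with 42 of 71 below 0 for each hairpin, and the medians of all genes were 0.05 and 0.08. Of all genes, 40.5% and 37.5% then lay below 0. The members' median less that of all genes was -0.11 and -0.12, which centring cannot change, since it shifts all genes of an array alike. With quantile normalization the members' medians were -0.07 and -0.06, with 44 and 46 of 71 below 0. The medians of all genes were then 0.002 and 0.01, with 49.6% and 47.5% below 0. The members' median less that of all genes was then -0.07 with each hairpin. Leaving out shTdp-43-1 replicate 3 moved the shTdp-43-1 median to -0.05, with 44 of 71 below 0, and leaving out shCont replicate 1 moved it to -0.07, with 47 of 71.

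By array, the median deviation of the 71 members from the shCont mean was -0.06, -0.05 and -0.15 on the shTdp-43-1 arrays, -0.12, -0.05 and -0.22 on the shTdp-43-2 arrays, and 0.04, -0.04 and 0.006 on the shCont arrays. Over all genes the same medians were 0.008, 0.02 and -0.02, then -0.04, 0.003 and -0.03, and 0.01, -0.03 and 0.01. Replicate 3 of each hairpin stood lowest for the members. The shCont replicate 2 array, at -0.04, was nearly as low as the highest hairpin arrays.

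**Figure D2:**
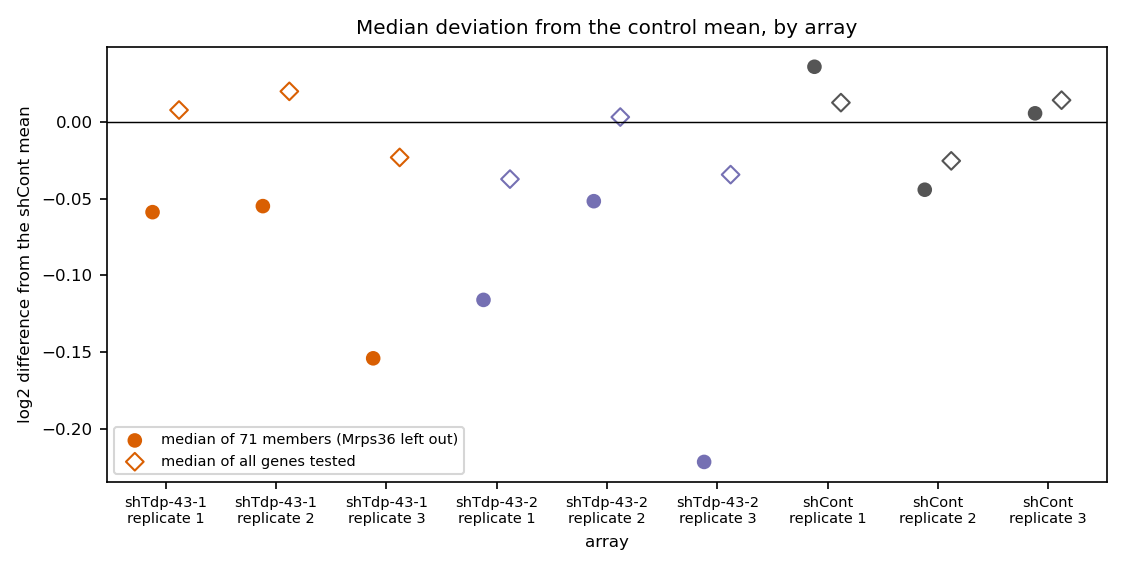
Median deviation from the shCont mean in log2 units (vertical axis) on each of the 9 arrays, for the 71 members without Mrps36 and for all genes tested. The member medians reach -0.15 on shTdp-43-1 replicate 3 and -0.22 on shTdp-43-2 replicate 3, while all 9 medians over all genes lie between -0.04 and 0.02.

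The large subunit, which forms the peptide bonds, had 45 tested members, with Mrps18a and Mrps30 counted here because their proteins sit in that subunit. Its median change was -0.08 for shTdp-43-1 and -0.09 for shTdp-43-2, with 34 and 33 of 45 estimates below 0. The 28 with a bacterial counterpart had medians of -0.08 and -0.18, and the 17 without one had -0.11 and -0.09. Calls were 1 higher and 1 lower with shTdp-43-1 and 1 higher and 4 lower with shTdp-43-2. The small subunit, which binds and decodes the message, had 26 tested members with medians of -0.11 and -0.13 and with 20 and 22 estimates below 0. Its 17 members with a bacterial counterpart had medians of -0.10 and -0.12, and its 9 mitochondria-specific members -0.12 and -0.16. It had 2 lower calls with each hairpin and none higher. Of all genes, 5.16% were called higher and 5.96% lower with shTdp-43-1, and 7.76% and 14.1% with shTdp-43-2. Estimates lay below 0 for 49% and 51.3% of all genes. No test of one subunit against the other was made.

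**Figure D3:**
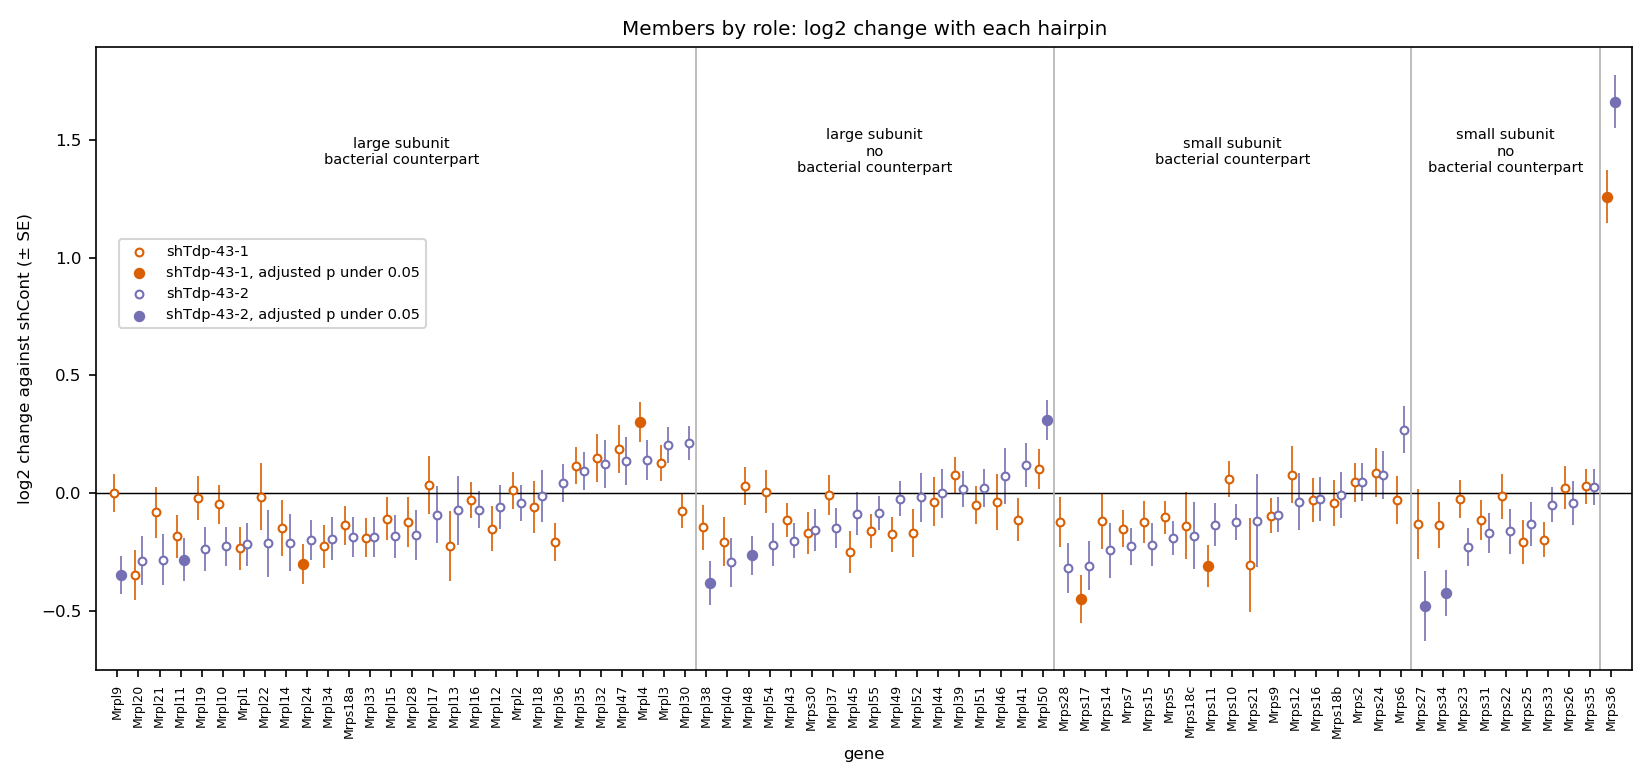
Log2 change against shCont (vertical axis) of each of the 72 tested members with shTdp-43-1 and shTdp-43-2, by subunit and bacterial counterpart; 1 point with its SE per gene and hairpin, filled where the limma adjusted p is under 0.05. Mrps36 stands alone at 1.26 and 1.66, and all other members lie between -0.48 and 0.31.

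In the large subunit, Mrpl4 and Mrpl50 rose with 1 hairpin each. Mrpl4, whose bacterial counterpart lines the exit tunnel, had 9.95, 9.93 and 9.73 on the shTdp-43-1 arrays, 9.69, 9.68 and 9.76 on the shTdp-43-2 arrays, against 9.62, 9.49 and 9.60 on the shCont arrays. All hairpin arrays were above all controls, and the rise with shTdp-43-1 was 0.30 ± 0.0849 (SE, ratio 1.23, limma adjusted p = 0.0418), with 0.14 and an adjusted p of 0.277 for shTdp-43-2. The call was lost without shTdp-43-1 replicates 1 or 2, shTdp-43-2 replicates 1 or 2 or shCont replicates 1, 2 or 3, each left out alone (limma adjusted p between 0.0527 and 0.146). Mrpl4 kept its call in 6 of 18 other settings, with changes of 0.26 to 0.40, and lost it also with a lower filter on dim probe sets, no filter on dim probe sets, the median over probe sets and genes of 1 probe set admitted, and with replicate 2 of shTdp-43-1 and replicate 3 of shTdp-43-2 both left out. Mrpl50, which has no bacterial counterpart, had 10.41, 10.22 and 10.27 on the shTdp-43-1 arrays, 10.51, 10.61 and 10.41 on the shTdp-43-2 arrays, against 10.22, 10.14 and 10.24 on the shCont arrays. It rose by 0.31 ± 0.0852 (SE, ratio 1.24, limma adjusted p = 0.0229) with shTdp-43-2, with no overlap of these arrays and the controls, and had 0.10 with shTdp-43-1. This call was lost without shTdp-43-2 replicates 1 or 2 or shCont replicates 1 or 2, each left out alone (limma adjusted p between 0.0611 and 0.0868). Mrpl50 kept its call in 13 of 18 other settings, with changes of 0.26 to 0.39, and lost it also with the median over probe sets.

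Mrpl24 fell with shTdp-43-1, and Mrpl9, Mrpl38, Mrpl11 and Mrpl48 fell with shTdp-43-2. Mrpl24, related to a bacterial protein at the mouth of the exit tunnel, had 9.32, 9.15 and 9.08 on the shTdp-43-1 arrays, 9.32, 9.30 and 9.24 on the shTdp-43-2 arrays, against 9.54, 9.40 and 9.53 on the shCont arrays. All hairpin arrays lay below all controls. The change was -0.30 ± 0.0851 (SE, ratio 0.81, limma adjusted p = 0.0415) with shTdp-43-1 and -0.20 (adjusted p = 0.119) with shTdp-43-2. Its call was lost without shTdp-43-1 replicates 2 or 3, shTdp-43-2 replicates 1 or 2 or shCont replicates 1, 2 or 3, each left out alone (limma adjusted p between 0.0535 and 0.144). Mrpl24 kept its call in 6 of 18 other settings, with changes of -0.37 to -0.16, and lost it also with a lower filter on dim probe sets, no filter on dim probe sets, the median over probe sets and genes of 1 probe set admitted, and with replicate 2 of shTdp-43-1 and replicate 3 of shTdp-43-2 both left out. Mrpl9, of the same family as the bacterial protein of that number, had 9.89, 9.73 and 9.64 on the shTdp-43-1 arrays, 9.40, 9.41 and 9.41 on the shTdp-43-2 arrays, against 9.77, 9.75 and 9.75 on the shCont arrays. The 3 shTdp-43-2 arrays were the lowest of the 9, with a change of -0.35 ± 0.0799 (SE, ratio 0.786, limma adjusted p = 0.00902), while the shTdp-43-1 arrays lay on both sides of the controls. Mrpl9 kept its call in 17 of 18 other settings, with changes of -0.36 to -0.26, and lost it with the median over probe sets.

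Mrpl38, a mitochondria-specific protein, had 9.62, 9.61 and 9.46 on the shTdp-43-1 arrays, 9.16, 9.45 and 9.37 on the shTdp-43-2 arrays, against 9.81, 9.66 and 9.66 on the shCont arrays. Arrays of both hairpins lay below every control, by -0.38 ± 0.095 (SE, ratio 0.767, limma adjusted p = 0.0135) with shTdp-43-2, against -0.15 (adjusted p = 0.334) with shTdp-43-1. The shTdp-43-2 call was lost without shTdp-43-2 replicate 1 or shCont replicate 1, each left out alone (limma adjusted p between 0.0601 and 0.0633). Mrpl38 kept its call in 16 of 18 other settings, with changes of -0.46 to -0.30. Mrpl11, at the base of the stalk that engages translation factors, had 10.09, 9.93 and 9.76 on the shTdp-43-1 arrays, 9.90, 9.78 and 9.79 on the shTdp-43-2 arrays, against 10.11, 10.12 and 10.10 on the shCont arrays. Its 3 control values lay within 0.02 of each other and above all 6 hairpin values, with a fall of 0.28 ± 0.0909 (SE, limma adjusted p = 0.0442) with shTdp-43-2 and a change of -0.18 with shTdp-43-1. The Mrpl11 call was lost without shTdp-43-1 replicate 2, shTdp-43-2 replicates 1, 2 or 3 or shCont replicates 1, 2 or 3, each left out alone (limma adjusted p between 0.0591 and 0.115). Mrpl11 kept its call in 4 of 18 other settings, with changes of -0.32 to -0.20, and lost it also with a lower filter on dim probe sets, no filter on dim probe sets, centred arrays, quantile normalization, the median over probe sets and genes of 1 probe set admitted, and with replicate 2 of shTdp-43-1 and replicate 3 of shTdp-43-2 both left out. Mrpl48, another mitochondria-specific protein, had 10.23, 10.18 and 10.02 on the shTdp-43-1 arrays, 9.91, 9.85 and 9.77 on the shTdp-43-2 arrays, against 10.13, 10.08 and 10.12 on the shCont arrays. It fell with shTdp-43-2, by 0.27 ± 0.0821 (SE, limma adjusted p = 0.0377), with 0.03 for shTdp-43-1. The call was lost without shTdp-43-1 replicate 2, shTdp-43-2 replicates 1, 2 or 3 or shCont replicates 1, 2 or 3, each left out alone (limma adjusted p between 0.0512 and 0.111). Mrpl48 kept its call in 7 of 18 other settings, with changes of -0.40 to -0.18, and lost it also with no filter on dim probe sets, centred arrays and genes of 1 probe set admitted, and with replicate 2 of shTdp-43-1 and replicate 3 of shTdp-43-2 both left out.

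In the small subunit, Mrps17 and Mrps11 fell with shTdp-43-1. Mrps17, whose bacterial counterpart binds the small ribosomal RNA early in assembly, had 8.74, 8.98 and 8.93 on the shTdp-43-1 arrays, 8.97, 9.22 and 8.87 on the shTdp-43-2 arrays, against 9.28, 9.33 and 9.39 on the shCont arrays. All 6 hairpin arrays lay below the controls. The fall was the largest of any member with shTdp-43-1, -0.45 ± 0.103 (SE, ratio 0.732, limma adjusted p = 0.018), and with shTdp-43-2 the change was -0.31, just short of the threshold (adjusted p = 0.0518). The shTdp-43-1 call was lost without shCont replicates 2 or 3, each left out alone (limma adjusted p between 0.0603 and 0.061). Mrps17 kept its call in 15 of 18 other settings, with changes of -0.50 to -0.23, and lost it also with the median over probe sets. Mrps11, with a bacterial counterpart on the platform of the subunit, had 9.33, 9.38 and 9.26 on the shTdp-43-1 arrays, 9.60, 9.56 and 9.33 on the shTdp-43-2 arrays, against 9.68, 9.68 and 9.54 on the shCont arrays. Only the shTdp-43-1 arrays were clear of the controls, and the change was -0.31 ± 0.0907 (SE, ratio 0.806, limma adjusted p = 0.0485) there and -0.14 (adjusted p = 0.331) with shTdp-43-2. The call was lost without shTdp-43-1 replicates 1, 2 or 3, shTdp-43-2 replicates 1 or 2 or shCont replicates 1, 2 or 3, each left out alone (limma adjusted p between 0.0513 and 0.153). Mrps11 kept its call in 4 of 18 other settings, with changes of -0.36 to -0.07, and lost it also with a lower filter on dim probe sets, no filter on dim probe sets, centred arrays, quantile normalization, the median over probe sets and genes of 1 probe set admitted.

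Mrps27 and Mrps34, both without a bacterial counterpart, fell with shTdp-43-2. Mrps34, variants of whose human gene cause Leigh syndrome, had 8.94, 8.95 and 8.72 on the shTdp-43-1 arrays, 8.48, 8.68 and 8.59 on the shTdp-43-2 arrays, against 9.15, 8.90 and 8.98 on the shCont arrays. The 3 shTdp-43-2 arrays were the lowest of the 9, with a change of -0.43 ± 0.0973 (SE, ratio 0.745, limma adjusted p = 0.00887), and the shTdp-43-1 change was -0.14 (adjusted p = 0.379). Mrps34 kept its call in 17 of 18 other settings, with changes of -0.48 to -0.22, and lost it with the median over probe sets. Mrps27, a protein of the pentatricopeptide repeat family, had 9.15, 9.39 and 8.86 on the shTdp-43-1 arrays, 8.61, 8.81 and 8.93 on the shTdp-43-2 arrays, against 9.52, 9.06 and 9.21 on the shCont arrays. Its values were scattered, and the controls alone ranged from 9.06 to 9.52. The change was -0.48 ± 0.149 (SE, ratio 0.716, limma adjusted p = 0.0382) with shTdp-43-2 and -0.13 with shTdp-43-1, and the call was lost without shTdp-43-2 replicates 1 or 2 or shCont replicates 1 or 3, each left out alone (limma adjusted p between 0.0725 and 0.154). Mrps27 kept its call in 8 of 18 other settings, with changes of -0.65 to -0.35, and lost it also with a lower filter on dim probe sets, no filter on dim probe sets, centred arrays, quantile normalization and genes of 1 probe set admitted.

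**Figure D4:**
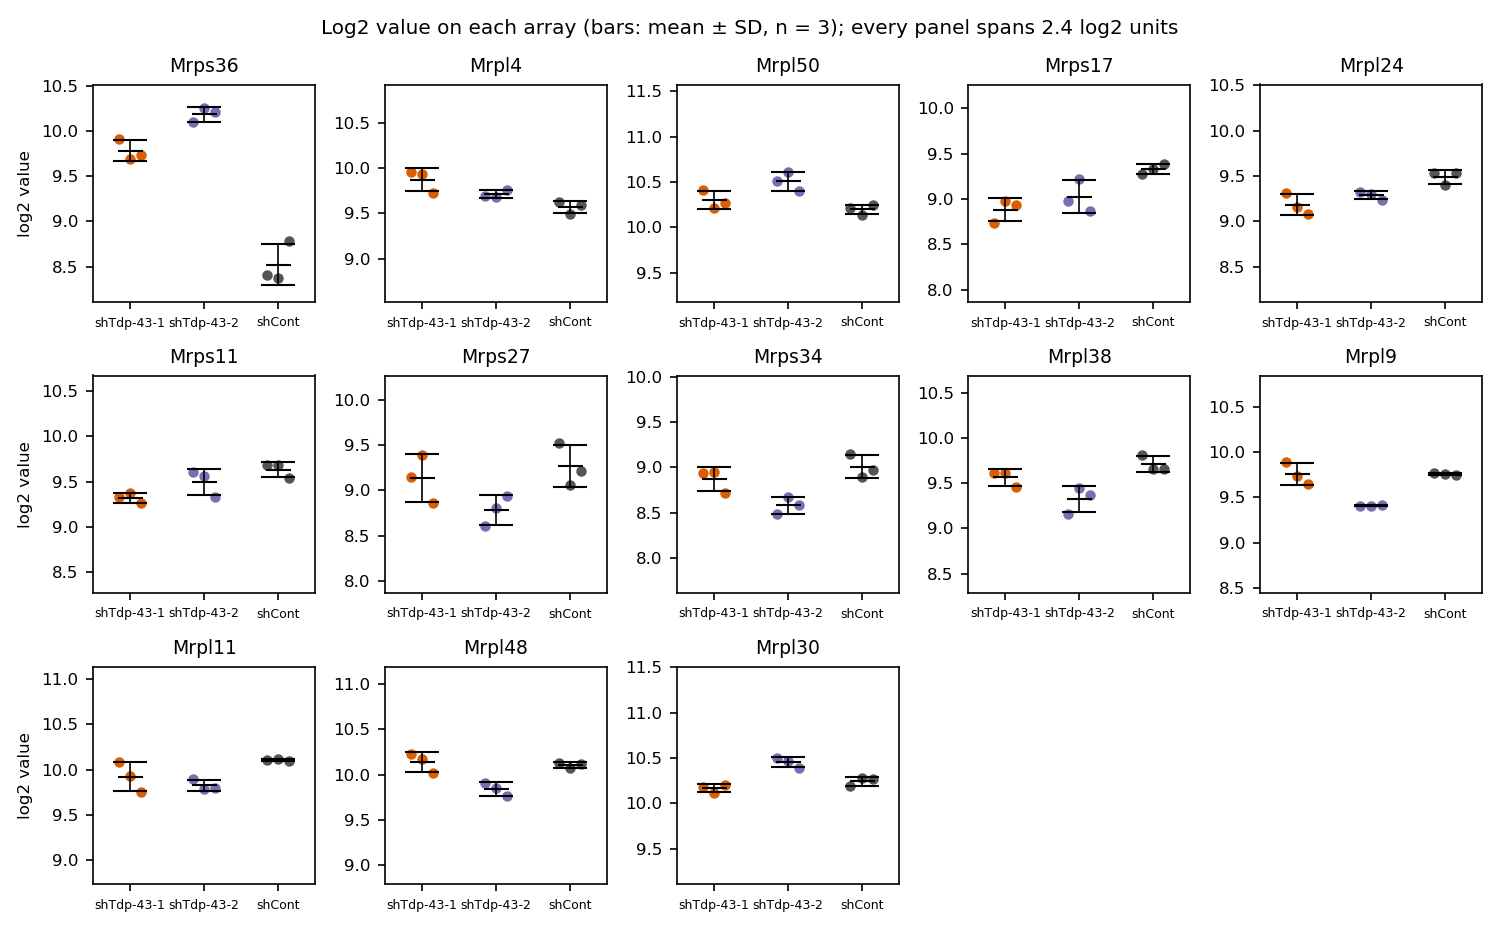
Log2 gene value (vertical axis) of the 13 named members on every array, with 1 point per array and bars for the mean ± SD (n = 3) of shTdp-43-1, shTdp-43-2 and shCont. In the Mrps36 panel the hairpin means are 9.78 and 10.18, against 8.52 in shCont.

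The 2 hairpins were also set against each other. The difference holds no control value, but the control arrays enter the shared estimate of the spread. Of 72 members, 4 differed (5.56%), against 11.5% of all genes, with 2 higher and 2 lower with shTdp-43-2 (2.78% each), against 4.22% and 7.31%. At an unadjusted p under 0.05 there were 15 members (20.8%), against 25.4% of genes, and 40 of 72 estimates (55.6%) lay below 0, against 57.8%. Mrps36 was higher with shTdp-43-2 than with shTdp-43-1 by 0.40 ± 0.113 (SE, ratio 1.32, limma adjusted p = 0.0397), with an interval of 0.16 to 0.65, although both hairpins had raised it. Mrpl30, a large-subunit protein with a bacterial counterpart, had 10.50, 10.47 and 10.39 on the shTdp-43-2 arrays, against 10.18, 10.12 and 10.20 on the shTdp-43-1 arrays, and 10.19, 10.28 and 10.26 on the shCont arrays. It was higher with shTdp-43-2 than with shTdp-43-1 by 0.29 ± 0.074 (SE, ratio 1.22, limma adjusted p = 0.0273), while against shCont its changes were 0.21 with shTdp-43-2 (adjusted p = 0.0624) and -0.08 with shTdp-43-1 (adjusted p = 0.521). Mrpl9 and Mrpl48 were lower with shTdp-43-2 than with shTdp-43-1, by -0.35 ± 0.0799 (SE, ratio 0.786, limma adjusted p = 0.0166) and -0.30 ± 0.0821 (SE, ratio 0.815, limma adjusted p = 0.0385). The count of 4 rested on single arrays, since leaving out any 1 hairpin array left 0 to 2 calls: 1 without shTdp-43-1 replicate 1 or 2, 2 without shTdp-43-1 replicate 3 or shTdp-43-2 replicate 2 or 3, and 0 without shTdp-43-2 replicate 1, where 7 members had an unadjusted limma p under 0.05. Shares of all genes without these arrays are not given here. The Mrps36 difference was lost without shTdp-43-1 replicates 2 or 3 or shTdp-43-2 replicates 1, 2 or 3, each left out alone (limma adjusted p between 0.0671 and 0.126, the call kept in 8 of 18 other settings). That of Mrpl30 was lost without shTdp-43-1 replicates 1, 2 or 3 or shTdp-43-2 replicates 1 or 2, each left out alone (limma adjusted p between 0.0545 and 0.114, the call kept in 11 of 18 other settings). Mrpl9 lost it without shTdp-43-1 replicate 1 or shTdp-43-2 replicate 1, each left out alone (limma adjusted p between 0.0548 and 0.0606, the call kept in 12 of 18 other settings), and Mrpl48 without shTdp-43-1 replicates 1 or 2, shTdp-43-2 replicates 1, 2 or 3 or shCont replicates 1, 2 or 3, each left out alone (limma adjusted p between 0.0549 and 0.119, the call kept in 5 of 18 other settings).

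Differential usage is the change of a probe set beyond that of the rest of its gene. It was called for member probe sets at shares near those of all probe sets in the test. With shTdp-43-1, 4 of 654 member probe sets were called (0.612%), against 0.494% of all 248701 in the test, and with shTdp-43-2 it was 6 (0.917%), against 1.24%. These were 9 probe sets in 8 genes, the Mrps36 set above among them. The count of 4 became 2 without shTdp-43-1 replicate 2 or shCont replicate 1, and the count of 6 became 13 when shTdp-43-2 replicate 2 was left out and 3 when shCont replicate 2 was. Shares of all probe sets without these arrays are not given here. Probe set 4453148 of Mrpl1, whose bacterial counterpart forms the stalk beside the exit site, was the one called with both hairpins. It had 6.39, 6.75 and 6.64 on the shTdp-43-1 arrays, 7.29, 6.63 and 6.71 on the shTdp-43-2 arrays, against 6.34, 5.75 and 5.71 on the shCont arrays. All hairpin arrays were above the controls here, by 0.97 ± 0.216 (SE, adjusted p = 0.00954) with shTdp-43-1 and 1.27 ± 0.216 (SE, adjusted p = 6.1e-05) with shTdp-43-2 relative to the rest of Mrpl1. Its control mean of 5.93 was below the filter value of 6.07, so it passed only through the hairpin arrays, where it is higher.

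In Mrpl15, of the large-subunit core, probe set 5613590 had 9.56, 9.29 and 9.33 on the shTdp-43-1 arrays, 9.15, 9.20 and 8.87 on the shTdp-43-2 arrays, against 10.23, 10.25 and 9.91 on the shCont arrays. Both hairpins' arrays lay below all controls, and the usage difference was -0.97 ± 0.213 (SE, adjusted p = 0.0046) with shTdp-43-2 and -0.69 ± 0.213 (SE, adjusted p = 0.16) with shTdp-43-1. Another Mrpl15 probe set, 5306966, went the other way with shTdp-43-2, at 0.78 ± 0.213 (SE, diffSplice adjusted p = 0.0434). Its usage difference with shTdp-43-1 was -0.08, and its hairpin and control arrays overlapped. Probe set 4649161 of Mrpl48 had 8.28, 7.74 and 7.73 on the shTdp-43-1 arrays, 6.94, 7.20 and 6.60 on the shTdp-43-2 arrays, against 6.99, 7.22 and 7.23 on the shCont arrays. It stood above the rest of the gene with shTdp-43-1, by 0.79 ± 0.149 (SE, adjusted p = 0.000838), while the rest of Mrpl48 had no call with that hairpin. Of the others, Mrpl3 probe set 4488173 had -0.75 ± 0.154 (SE, adjusted p = 0.00126) and Mrps5 probe set 4945877 had 0.78 ± 0.201 (SE, adjusted p = 0.0212), both with shTdp-43-2. Mrps25 probe set 5215526 had 0.64 ± 0.164 (SE, diffSplice adjusted p = 0.0453) with shTdp-43-1. Probe set 4806751 of Mrpl18 had 1.10 ± 0.26 (SE, adjusted p = 0.0197) with shTdp-43-1. It averaged 6.75 in shTdp-43-1, 6.56 in shTdp-43-2 and 5.79 in shCont, so it passed the filter through the hairpin arrays alone, and its hairpin and control arrays overlapped. Probe set positions on the exons were not used here, so no exon is named.

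**Figure D5:**
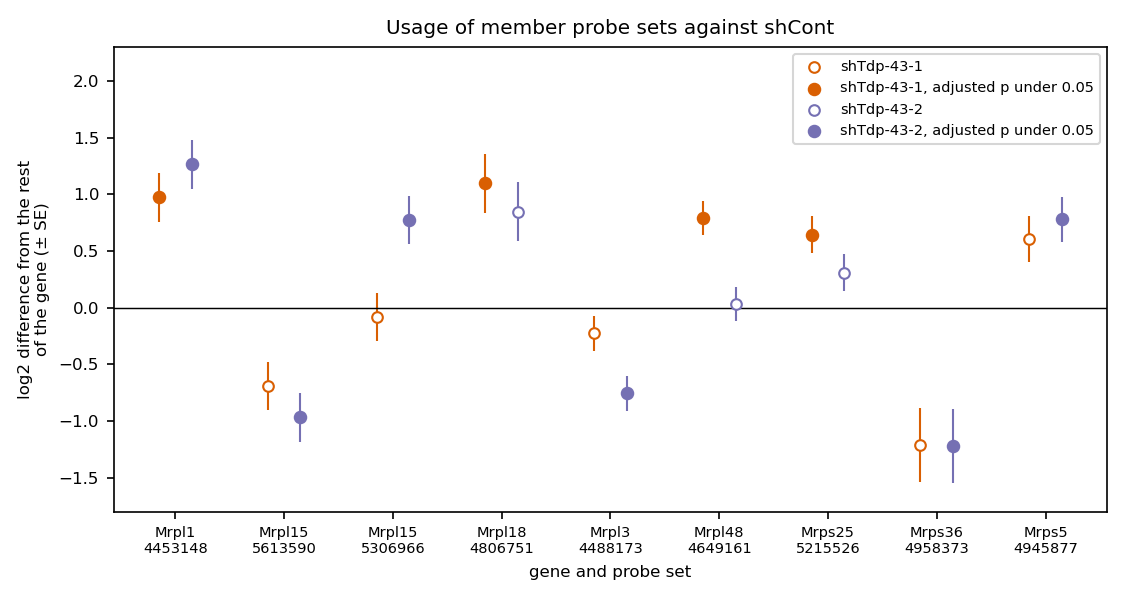
Difference between the change of a probe set and that of the rest of its gene in log2 units (vertical axis, ± SE) for the 9 member probe sets called with either hairpin; filled points have an adjusted p under 0.05. Mrpl1 4453148 is filled for both hairpins, at 0.97 with shTdp-43-1 and 1.27 with shTdp-43-2.

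Of the 74 members, 2 had fewer than the 3 probe sets needed for a test. Mrpl23 had 1, with group means of 7.73, 8.11 and 7.72 in shTdp-43-1, shTdp-43-2 and shCont. Mrpl27 had 2, of which probe set 5284198 had 10.77, 10.66 and 10.45 on the shTdp-43-1 arrays, 9.68, 9.93 and 9.64 on the shTdp-43-2 arrays, against 10.50, 10.48 and 10.43 on the shCont arrays. As a single probe set its changes were 0.15 (adjusted p = 0.725) with shTdp-43-1 and -0.72 ± 0.149 (SE, limma adjusted p = 0.0462) with shTdp-43-2. Mrpl53 is represented only by 10 probe sets shared with Ccdc142 and is not among the 74. The genes now called Mrpl42, Mrpl57 and Mrpl58 carried other symbols on the platform and had no call.

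Mitochondrial ribosomal proteins without an Mrpl or Mrps symbol on the platform were tested for 6 of 7 listed genes, with medians of -0.17 with shTdp-43-1 and -0.14 with shTdp-43-2 and with 1 lower call, with shTdp-43-2, where 14.1% of all genes were called lower. Mrpl42 was tested but is not in this list, with changes of -0.12 with shTdp-43-1 and 0.23 with shTdp-43-2. Dap3, a GTP-binding protein of the small subunit, had 11.23, 11.29 and 11.30 on the shTdp-43-1 arrays, 10.97, 11.24 and 11.13 on the shTdp-43-2 arrays, against 11.39, 11.50 and 11.45 on the shCont arrays. It fell by 0.33 ± 0.0855 (SE, limma adjusted p = 0.0159) with shTdp-43-2, and the call was lost without shTdp-43-2 replicate 1 or shCont replicate 2, each left out alone (limma adjusted p between 0.0647 and 0.0729, the call kept in 14 of 18 other settings).

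The factors that work on the mitochondrial ribosome were next considered. Of 16 mitochondrial translation factors, 15 were tested, and all 15 had estimates below 0 with each hairpin, with medians of -0.18 and -0.19, and 1 fell with shTdp-43-1 and 6 with shTdp-43-2. Of all genes, 49% and 51.3% had estimates below 0, and 5.96% and 14.1% were called lower. Taco1, which activates translation of the cytochrome c oxidase message, had 9.11, 9.03 and 8.97 on the shTdp-43-1 arrays, 8.93, 8.93 and 8.88 on the shTdp-43-2 arrays, against 9.42, 9.42 and 9.37 on the shCont arrays. It fell with both hairpins, by 0.37 ± 0.0736 and 0.49 ± 0.0736 (SE, limma adjusted p = 0.00964 and 0.000773), and kept both calls in 18 of 18 other settings. With shTdp-43-2, the release factor gene Mtrf1l fell by 0.52 (limma adjusted p = 0.0117), and Mtfmt, which formylates the initiator tRNA, by 0.49 (0.00923). Mtif2, an initiation factor, fell by 0.33 (limma adjusted p = 0.0481), a call lost without shTdp-43-1 replicate 3, shTdp-43-2 replicates 1 or 3 or shCont replicates 1, 2 or 3, each left out alone (limma adjusted p between 0.0672 and 0.16, the call kept in 4 of 18 other settings). Their changes with shTdp-43-1 were -0.27, -0.21 and -0.23, none called.

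Assembly factors and enzymes that modify mitochondrial ribosomal RNA had medians of -0.07 and -0.18 over 19 of 21 genes, with 1 and 2 lower calls, where 5.96% and 14.1% of all genes were called lower. Tfb1m, which dimethylates the small ribosomal RNA, had 9.05, 9.19 and 9.27 on the shTdp-43-1 arrays, 9.77, 9.76 and 9.57 on the shTdp-43-2 arrays, against 9.82, 9.78 and 9.99 on the shCont arrays. Its change was -0.69 ± 0.0953 (SE, ratio 0.62, limma adjusted p = 0.00137) with shTdp-43-1 and -0.17 (adjusted p = 0.251) with shTdp-43-2. Fastkd2, an RNA-binding protein needed for the large ribosomal RNA, was called with shTdp-43-2 instead, with -0.18 (adjusted p = 0.281) for shTdp-43-1 and a fall of 0.61 ± 0.104 (SE, limma adjusted p = 0.00159) with shTdp-43-2. Both genes differed between the hairpins in a direct test (limma adjusted p = 0.00497 and 0.0201), though Fastkd2 lost that call without shTdp-43-1 replicates 1 or 3 or shTdp-43-2 replicates 1 or 3, each left out alone (limma adjusted p between 0.0545 and 0.0624, the call kept in 11 of 18 other settings). Mrm2, a methyltransferase of the large ribosomal RNA, fell by 0.29 with shTdp-43-2 (limma adjusted p = 0.0247), a call lost without shTdp-43-2 replicates 1, 2 or 3 or shCont replicates 1 or 3, each left out alone (limma adjusted p between 0.0558 and 0.108, the call kept in 10 of 18 other settings).

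Genes for the upkeep and transcription of mitochondrial DNA, from which the ribosomal RNAs come, had medians of -0.17 and -0.11 over 14 of 14 genes, with 4 and 3 lower calls, where 5.96% and 14.1% of all genes were called lower. Twnk, the replicative helicase, had 8.64, 8.68 and 8.56 on the shTdp-43-1 arrays, 8.16, 8.17 and 8.08 on the shTdp-43-2 arrays, against 9.19, 8.95 and 9.06 on the shCont arrays. It fell with both hairpins, by 0.44 (limma adjusted p = 0.00779) and 0.93 (3.49e-05), and its levels with shTdp-43-2 were below those with shTdp-43-1 by a log2 difference of -0.49 (adjusted p = 0.00359). Ssbp1, the single-strand binding protein of mitochondrial DNA, had 8.21, 8.34 and 8.45 on the shTdp-43-1 arrays, 8.35, 8.49 and 8.26 on the shTdp-43-2 arrays, against 9.01, 8.81 and 8.98 on the shCont arrays. It fell by 0.60 and 0.57 (limma adjusted p = 0.00272 and 0.00145). Polg2, a subunit of the DNA polymerase, fell by 0.46 with shTdp-43-2 (limma adjusted p = 0.00283). With shTdp-43-1, Pnpt1, an RNA-degrading enzyme, fell by 0.32, and Elac2, which trims tRNAs, by 0.29 (limma adjusted p = 0.0464 and 0.0374). Each of the calls of Pnpt1 and Elac2 was lost without any 1 of the shTdp-43-1 or shCont arrays or shTdp-43-2 replicate 1, with adjusted p between 0.0545 and 0.129 for Pnpt1 and between 0.0501 and 0.135 for Elac2.

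The known regulators of such genes did not move as a group. Of 8 tested, 1 rose with shTdp-43-1, and 2 rose and 2 fell with shTdp-43-2. Of all genes, 5.16% were called higher with shTdp-43-1, and 7.76% higher and 14.1% lower with shTdp-43-2. Ppargc1a, a coactivator of mitochondrial biogenesis, had 10.48, 10.32 and 10.18 on the shTdp-43-1 arrays, 10.20, 10.33 and 10.12 on the shTdp-43-2 arrays, against 9.83, 9.87 and 10.03 on the shCont arrays. It rose by 0.41 ± 0.0997 (SE, ratio 1.33, limma adjusted p = 0.0221) with shTdp-43-1 and 0.31 ± 0.0997 (SE, ratio 1.24, limma adjusted p = 0.0458) with shTdp-43-2. The first call was lost without shTdp-43-1 replicates 1 or 2 or shCont replicates 1 or 2, each left out alone (limma adjusted p between 0.0588 and 0.0898, the call kept in 12 of 18 other settings). The second was lost without shTdp-43-1 replicate 2, shTdp-43-2 replicates 1 or 2 or shCont replicates 1 or 2, each left out alone (limma adjusted p between 0.0595 and 0.153, the call kept in 7 of 18 other settings). GABP is made of a DNA-binding alpha and an activating beta subunit. Gabpb1, for a beta subunit, had 9.01, 9.01 and 9.06 on the shTdp-43-1 arrays, 9.53, 9.45 and 9.23 on the shTdp-43-2 arrays, against 8.90, 8.89 and 8.94 on the shCont arrays, and rose by 0.49 with shTdp-43-2 (limma adjusted p = 0.00211). Gabpa, for the alpha subunit, fell by 0.36 with that hairpin (limma adjusted p = 0.0372), a call lost without shTdp-43-2 replicates 1 or 3 or shCont replicates 2 or 3, each left out alone (limma adjusted p between 0.0667 and 0.143, the call kept in 8 of 18 other settings). Nrf1 fell by 0.24 (limma adjusted p = 0.0313), a call lost without shTdp-43-2 replicates 1 or 2 or shCont replicates 1, 2 or 3, each left out alone (limma adjusted p between 0.0578 and 0.1, the call kept in 7 of 18 other settings).

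Markers of mitochondrial abundance gave 1 call with each hairpin, upward, where 5.16% and 7.76% of all genes were called higher. Of 10 such genes 7 were tested, with medians of -0.08 and -0.06. Cs, the citrate synthase of the matrix, had 12.65, 12.64 and 12.73 on the shTdp-43-1 arrays, 12.55, 12.78 and 12.62 on the shTdp-43-2 arrays, against 12.01, 12.18 and 12.31 on the shCont arrays. It rose by 0.51 ± 0.0961 (SE, ratio 1.42, limma adjusted p = 0.0074) with shTdp-43-1 and 0.48 ± 0.0961 (SE, ratio 1.4, limma adjusted p = 0.00412) with shTdp-43-2, and kept both calls in 18 of 18 other settings. RNA levels were measured here, and protein or ribosome content was not.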

How the data were processed

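Each value of the deposited table is the log2 intensity of a probe set on an array, which the authors computed by exon-level RMA in Affymetrix Expression Console, per the labels. The submitters' processing notes name these tools and the build mm9, and their versions were not given in the sources used here. RMA corrects background, equalises the distributions of the arrays and combines a set's probes, so a change shared by most genes is largely removed.

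Of 1256831 probe sets, 318760 name 1 symbol, 6684 several and 931387 none in the platform annotation. Symbols were updated through RefSeq (18006 current, 4227 updated, 63 kept). Gene values are means over probe sets naming 1 gene with a 9-array mean at or above the table median, for genes with at least 3 such sets. All 9 arrays were fitted in one limma model (version 3.58.1, R 4.3.3, lmFit and eBayes, 6 residual degrees of freedom), with diffSplice for usage and Benjamini-Hochberg adjustment over all genes or probe sets tested. A call is an adjusted p under 0.05. The smallest two-sided exact permutation p for 3 arrays against 3 is 0.1. The scripts were tested on simulated data. Intensities carry no counts, and 3 arrays per group limit the precision.

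Members and lists were chosen with earlier results of these data known. Named were Tardbp, Mrps36, all other members called with either hairpin or between them, member probe sets called for usage, and up to 4 called genes per pathway list and hairpin. Mrpl20, the usage calls with 1 hairpin and the neighbours of Mrps36 were added after their values were seen. Alternatives changed the dim filter, the scaling, the summary, the minimum of probe sets, the variance model and the arrays used. Same-numbered replicates did not deviate together throughout (correlations of -0.383 to 0.593), so the numbers were not taken to pair samples.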

Additional observations from a re-analysis of the deposited data

Results flagged for a closer look

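The effects of the hairpins against shCont differed from each other for 4 members, by limma's test of shTdp-43-2 minus shTdp-43-1 on the log2 scale over 16770 genes. The difference was 0.403 for Mrps36 (adjusted p = 0.0397), 0.288 for Mrpl30 (0.0273), -0.296 for Mrpl48 (0.0385) and -0.347 for Mrpl9 (0.0166). These are 5.56% of the members tested, against 11.5% of all genes that differed. Leaving out 1 array gave 0 to 3 such member calls. For Mrps36 both hairpins were above shCont and differed in size, while for the other 3 members at most 1 hairpin had a call against shCont.

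A further 6 named genes also differed between the hairpins. Tfb1m stood higher with shTdp-43-2 by 0.524 (adjusted p = 0.00497) and Gabpb1 by 0.378 (0.017). Twnk was lower with shTdp-43-2 by a log2 difference of -0.489 (adjusted p = 0.00359), Fastkd2 by -0.433 (0.0201), Gabpa by -0.465 (0.0202) and Cdk7, a neighbour of Mrps36, by -0.509 (0.00803). The Gabpb1 difference lost its call without shTdp-43-1 replicate 2 or shTdp-43-2 replicate 1 or 2 (adjusted p between 0.0507 and 0.0823), and that of Gabpa without shTdp-43-1 replicate 3 or shTdp-43-2 replicate 1 (between 0.0778 and 0.0895).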

How the results depend on the processing

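No called value of a named gene changed sign under any setting run, and Mrps36 kept its calls with both hairpins in all of them. The counts of called members moved more. The shares of all genes or probe sets called under the same settings are not given here. These counts therefore cannot be told apart from a change in calls over all genes. With shTdp-43-1 the 5 calls became 3 with a dim filter at the 25th percentile, 2 with no dim filter, 1 with the median over probe sets, 2 with genes of 1 probe set admitted and 3 with the shTdp-43-1 array of replicate 2 and the shTdp-43-2 array of replicate 3 both left out, a setting chosen after seeing the data. With shTdp-43-2 the 8 calls became 5 with no dim filter, 5 with genes of 1 probe set admitted and 16 with an intensity trend in eBayes. Between the hairpins the 4 calls became 1 with the lower dim filter, 1 with none, 7 with arrays centred on their median, 7 with quantile normalization, 2 with genes of 1 probe set admitted, and 0 in limma with the median over probe sets or without both of those arrays (9 and 12 at an unadjusted p under 0.05). The member called with both hairpins became 2 with the intensity trend. Usage calls with shTdp-43-1 became 8 and 7 with the lower and no dim filter and 2 without both arrays, in place of 4. With shTdp-43-2 the split of 2 higher and 6 lower calls became 5 and 3 with centred arrays and 4 and 5 with quantile normalization. Leaving out 1 array gave 1 to 6 calls with shTdp-43-1, 3 to 12 with shTdp-43-2, 0 to 3 between the hairpins and 1 to 3 with both hairpins. It gave 2 to 6 and 3 to 13 usage calls with shTdp-43-1 and shTdp-43-2, and 0 to 4 Mrps36 probe sets called alone with both. Where an array was left out, its group of 2 was fitted with the spread of all groups, and the cause of the other changes was not tested.

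With the replicate number as a block, there were 6 member calls with shTdp-43-1, 11 with shTdp-43-2, 4 between the hairpins and 3 with both. The shares of all genes called with the block are not given here. Of the calls of named genes, those of Mrps27, Mtif2 and Ppargc1a with shTdp-43-2 were lost with the block (limma adjusted p = 0.0513, 0.0592 and 0.0548). Usage calls with the block were 10 and 9, and 0 of the Mrps36 probe sets were called alone with both hairpins (12 at an unadjusted limma p under 0.05). Same-numbered arrays correlated in their deviations at -0.383 to 0.593, and 5 of 9 arrays correlated best with their own number.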
